A study of Homo sapiens with 6 samples.

Results

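The PRDM proteins are transcriptional regulators that carry a PR domain, related to the SET domain of histone methyltransferases, usually followed by an array of zinc fingers that reads DNA. Some members methylate histone H3 themselves, and others act through partner proteins such as histone deacetylases, CTBP proteins and methyltransferases. The family is known for its part in cell fate choices, with PRDM1 (also called BLIMP1) repressing transcription in plasma cells and PRDM16 supporting the brown fat programme. In the 38648 rows of the gene tables, the 9 PRDM genes described here are PRDM1, PRDM2, PRDM4, PRDM8, PRDM10, PRDM11, PRDM13, PRDM15 and PRDM16, each found by its gene name in 1 row. Other PRDM genes and the partner proteins are given afterwards as lists.

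The 6 bulk RNA-seq libraries came from HK-2, an immortalized human line derived from proximal tubular cells of the kidney. The IR+NC-LV group (n = 3) carried a negative control lentivirus and the IR+PR-LV group (n = 3) carried a PRDM16 overexpression lentivirus. Both groups had received 8 Gy of X-rays and were collected on day 7, so that no unirradiated cells and no cells without virus are part of the comparison. According to the study's methods, the cells were selected with puromycin after transduction and GFP was seen in them, which makes each group a selected pool. The promoter that drives the transgene was not given in the sources used here, and a read count per gene does not separate transgene reads from reads of the cells' own PRDM16. Nothing states that the numbered libraries came from separately treated cultures, so that the p-values measure the spread between these libraries, which may be technical.

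The total count was between 13407074 and 28540041 reads per library, the smallest in IR+NC-LV replicate 3 and the largest in IR+PR-LV replicate 2. In the quasi-likelihood test of edgeR, with p-values adjusted by the Benjamini-Hochberg method, 10 of 15340 tested genes passed an adjusted p of 0.05, and the median log2 fold change of all tested genes was 0.00444. Of 18 epithelial and tubular markers, 12 had a mean of at least 1 TPM (a level that is corrected for gene length and depth), among them KRT8, KRT18, KRT19, CDH2, PAX8 and CDH6. Their summed level was 2567 to 2664 TPM in IR+NC-LV and 2560 to 3083 TPM in IR+PR-LV. The markers of the differentiated proximal tubule were mixed, with 7210 reads for GGT1 (mean 69.9 TPM) and 280 for AQP1 (2.92 TPM) over all 6 libraries. CUBN had 134 reads (mean 0.280 TPM), SLC34A1 71 (0.304 TPM), ANPEP 19, HNF4A 4 and LRP2 3. The epithelial marker CDH1 was also low, with 71 reads (0.420 TPM). Among markers of leukocytes, CD14 had 242 reads (mean 4.14 TPM) and PTPRC 10, and among those of plasma and B cells, SDC1, which epithelial cells also express, had 13480, JCHAIN 159 and MS4A1 none.

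The promoter sequences shown here are those of PRDM4, the member with the highest level, and of PRDM1, the member with the lowest p-value, since the windows differ in base composition. They are RefSeq windows of build GRCh38.p14, from 250 bases before to 50 bases after an annotated start, read 5′ to 3′ on the strand of the gene. Capitals mark the AP-1-like motif TGANTCA, in which N stands for any base. The PRDM4 window lies at chr12:107761088-107761387 on the minus strand, and the PRDM1 windows at chr6:106086086-106086385 and chr6:106098691-106098990 on the plus strand.
PRDM4: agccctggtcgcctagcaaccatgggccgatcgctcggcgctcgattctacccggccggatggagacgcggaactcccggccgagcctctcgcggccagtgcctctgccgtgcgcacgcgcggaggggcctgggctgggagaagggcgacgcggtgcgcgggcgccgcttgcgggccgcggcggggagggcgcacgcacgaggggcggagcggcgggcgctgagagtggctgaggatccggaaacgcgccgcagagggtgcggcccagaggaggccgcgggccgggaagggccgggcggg
PRDM1 upstream window: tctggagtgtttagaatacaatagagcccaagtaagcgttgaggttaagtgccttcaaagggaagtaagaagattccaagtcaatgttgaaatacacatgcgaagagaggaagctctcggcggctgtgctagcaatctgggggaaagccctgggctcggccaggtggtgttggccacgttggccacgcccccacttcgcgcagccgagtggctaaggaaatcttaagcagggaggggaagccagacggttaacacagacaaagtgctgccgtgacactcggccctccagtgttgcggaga
PRDM1 downstream window: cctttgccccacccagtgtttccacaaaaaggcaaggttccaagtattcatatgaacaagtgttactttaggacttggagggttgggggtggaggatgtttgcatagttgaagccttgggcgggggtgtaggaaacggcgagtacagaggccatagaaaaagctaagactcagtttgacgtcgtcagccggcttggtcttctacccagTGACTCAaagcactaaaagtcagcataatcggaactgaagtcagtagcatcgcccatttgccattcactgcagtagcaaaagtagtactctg

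The PRDM4 window held 47 CpG dinucleotides and 77.3% G or C. The PRDM1 windows held 14 and 8 CpG dinucleotides, beside a median of 14 over the 35116 promoter windows of the table. A PRDM15 window held 49 and a PRDM11 window 48, while the PRDM10 windows held at most 13. The windows shown thus do not stand for all members. The table had 18 windows for 8 of the 9 genes. The AP-1-like motif, searched on both strands, occurred in 7.71% of all windows. Among the 9 genes it occurred in the downstream PRDM1 window as TGACTCA, where its first base lay at position -42 from the start. It also occurred in 1 window each of PRDM11 (as TGAGTCA), PRDM13 and PRDM15 (both as TGATTCA). The GC box GGGCGG, present in 45.0% of all windows, occurred 2 times in the PRDM4 window and 1 time in the downstream PRDM1 window. The motif TGACGTCA was in 1.85% and the motif GAAAGT, a core of PRDM1 binding sites, in 13.3% of all windows, and neither was in any of the 18. None of the 4 motifs shares its full run of letters with another. The motifs were chosen after the expression values had been seen, and a match describes the letters only.

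The 9 genes fell into a steep order of levels, which was nearly the same in all libraries (plot of TPM by library). PRDM4, a zinc finger regulator that recruits the arginine methyltransferase PRMT5 in neural stem cells, was the highest. Its TPM was 63.0, 60.7 and 79.6 in replicates 1, 2 and 3 of IR+NC-LV, against 56.9, 55.0 and 58.3 in those of IR+PR-LV. PRDM4 was first in all 6 libraries and made up 62.4% to 68.8% of the summed TPM of the 9 genes. With a mean of 62.3 ± 8.95 TPM (SD, n = 6) it stood above 88.8% of the genes that had any read. PRDM4 is a minus-strand gene of chromosome 12, from 107732866 to 107761272 (GRCh38), with 4343 exon bases.

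PRDM2 (also called RIZ), a histone H3K9 methyltransferase and tumour suppressor, came second with 12.3 ± 0.913 TPM (SD, n = 6). PRDM15, which takes part in the control of pluripotency, had 7.64 ± 0.610 TPM and PRDM10, a regulator needed in embryonic development, 7.24 ± 0.285 TPM (SD, n = 6). PRDM15 was above PRDM10 in 6 of 6 libraries by a mean ratio of 1.05, although the ranges of their levels overlapped. PRDM4, PRDM2, PRDM15 and PRDM10 together held 93.0% to 94.9% of the summed TPM of the 9 genes. These 4 genes kept their places in every library. PRDM2 lies on chromosome 1 from 13698874 to 13825079, PRDM15 on chromosome 21 from 41798225 to 41879396 and PRDM10 on chromosome 11 from 129899711 to 130003097.

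Below them, PRDM11, which has few zinc fingers for a member of the family, had 2.16 ± 0.222 TPM (SD, n = 6), and its range lay entirely below that of PRDM10. PRDM13, known from the development of spinal and retinal neurons, had 1.59 ± 0.399 TPM, and PRDM8, another neural regulator, 1.15 ± 0.202 TPM (SD, n = 6). The levels of PRDM11 and PRDM13 overlapped, as did those of PRDM13 and PRDM8, of PRDM8 and PRDM1 and of PRDM1 and PRDM16. PRDM1 had 0.721 ± 0.444 TPM and PRDM16 had 0.113 ± 0.114 TPM over the 6 libraries (SD, n = 6). PRDM16 was the lowest of the 9 in 6 of 6 libraries, including the 3 that carried its overexpression virus. These are RNA levels, while the study measured PRDM16 protein in HK-2 cells with either virus by western blot. PRDM11 lies on chromosome 11 from 45094159 to 45235114, PRDM13 on chromosome 6 from 99606833 to 99615562 and PRDM8 on chromosome 4 from 80183418 to 80204329.

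**Figure D1:**
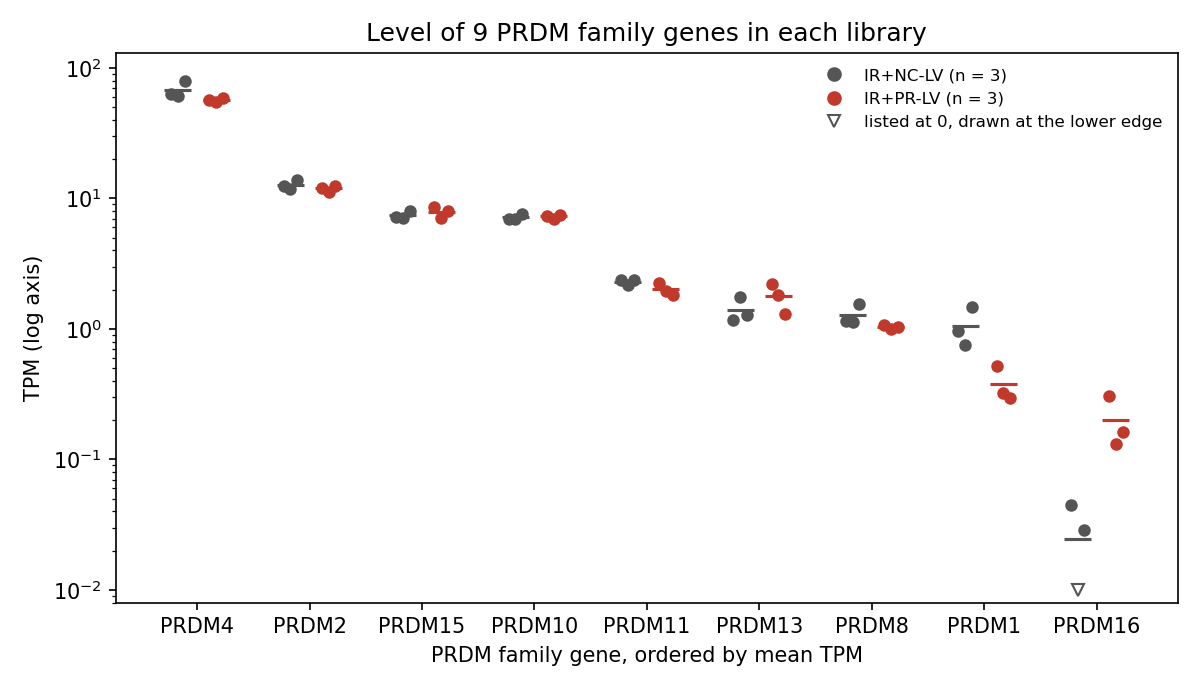
Level of each of the 9 PRDM genes in TPM on a log axis, with 1 point per library, IR+NC-LV in grey and IR+PR-LV in red, and a line at the mean of each group (n = 3). PRDM4 lies near 62.3 TPM and PRDM16 at or below 0.308 TPM in every library; the open triangle marks the library in which PRDM16 was listed at 0.

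PRDM16, the overexpressed gene, had 2, 0 and 1 reads in IR+NC-LV replicates 1, 2 and 3. It had 14, 10 and 8 reads in IR+PR-LV replicates 1, 2 and 3. The groups did not overlap, and the direction was the one that the labels give. In TPM, the levels were 0.0446, 0 and 0.0288 in IR+NC-LV against 0.308, 0.131 and 0.163 in IR+PR-LV. PRDM16 lies on chromosome 1 from 3069203 to 3438621 (GRCh38) with 8698 exon bases, so that the 32 reads of the IR+PR-LV group cover it thinly.

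Summed over libraries, 32 reads in IR+PR-LV against 3 in IR+NC-LV gave a ratio per total count of 8.51, with an exact 95% interval of 2.66 to 43.4 that covers counting error only. The count of 0 in IR+NC-LV replicate 2 allowed up to 0.142 CPM (reads scaled to the total of the library, here and in the Poisson intervals without TMM scaling), taken as 3 reads of its total, and the upper end of its 2-sided exact Poisson interval, which the plot shows, was 0.174 CPM. Single libraries were less clearly apart than the groups. The exact Poisson interval at 95% was 0.0145 to 0.434 CPM in IR+NC-LV replicate 1, and it overlapped those of IR+PR-LV replicate 2 (0.168 to 0.644 CPM) and replicate 3 (0.185 to 0.844 CPM). That of IR+NC-LV replicate 3 reached up to 0.416 CPM and overlapped both as well, while IR+PR-LV replicate 1, from 0.450 CPM upward, lay above every control interval.

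PRDM16 failed edgeR's filter on low counts and so had no value in the main test. In the edgeR quasi-likelihood fit without that filter, PRDM16 rose, with a log2 fold change of 3.03 (SE 0.70, 95% interval 1.63 to 4.43) and a Benjamini-Hochberg adjusted p of 0.00872. In this fit 1.19% of 28831 genes passed, against 0.0652% of the genes in the main test. The fitted size depends on the prior count, since the IR+NC-LV group held 3 reads. Without IR+NC-LV replicate 2 the fold change was 2.35 and the adjusted p 0.054, and the call was lost without that library. DESeq2 gave a log2 fold change of 3.17 and no adjusted p for PRDM16. The exact 2-sided permutation test gave p = 0.1 for PRDM16, the smallest that 3 against 3 libraries allow.

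PRDM1 was the gene of the family with the lowest p-value in the main test, and it was lower in the cells with the PRDM16 virus. Its reads numbered 42, 42 and 49 in replicates 1, 2 and 3 of IR+NC-LV, against 23, 24 and 14 in those of IR+PR-LV. In TPM, PRDM1 stood at 0.967, 0.757 and 1.46 in IR+NC-LV against 0.523, 0.325 and 0.295 in IR+PR-LV. Every IR+PR-LV library lay below every IR+NC-LV library, in reads as in TPM. The deepest of all libraries had 24 PRDM1 reads and the shallowest had 49. PRDM1 is a plus-strand gene of chromosome 6, from 106046729 to 106109938 (GRCh38), with 8418 exon bases. In bulk libraries such as these, fewer cells that express a gene and less RNA per cell cannot be told apart.

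On the scale of TMM-normalised CPM, PRDM1 was 2.67 ± 0.779 in IR+NC-LV against 0.995 ± 0.327 in IR+PR-LV (SD, n = 3 each). The log2 fold change of PRDM1 was -1.42 (SE 0.30, 95% interval -2.09 to -0.76), which placed it at rank 94 of 15340 genes by p-value. Its adjusted p in edgeR's quasi-likelihood test was 0.148 (unadjusted 0.000916), so PRDM1 did not pass. The call depended on the tool and the filter. PRDM1 had an adjusted p of 0.0421 in DESeq2, where 1.13% of 14851 genes passed, and of 0.000755 in the edgeR fit without the filter, where 1.19% passed. The log2 fold change was -1.42 and -1.41 in these fits. With each library left out of the main fit in turn, PRDM1 ranged from -1.68 to -1.19, with adjusted p between 0.0954 and 0.539. Without the filter it passed in all 6 such refits, with adjusted p between 1.28e-06 and 0.0029. How many of all genes passed in those refits was not counted. With all libraries, the SE of PRDM1 was 0.27 without the filter against 0.30 with it. The fold change and its SE thus changed little, while the p-value fell.

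The level of PRDM1 is low, and counting error is large at this depth. The exact Poisson interval at 95% was 1.43 to 2.68 CPM in IR+NC-LV replicate 2, its lowest control library, and 0.858 to 2.03 CPM in IR+PR-LV replicate 1, and these overlapped. Those of IR+PR-LV replicates 2 and 3 reached up to 1.25 and 1.26 CPM and lay below the intervals of all IR+NC-LV libraries. Among 1420 tested genes within 1.5 times the mean CPM of PRDM1, 6 had a log2 fold change at or below that of PRDM1, PRDM1 included, and 32 did among all tested genes.

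**Figure D2:**
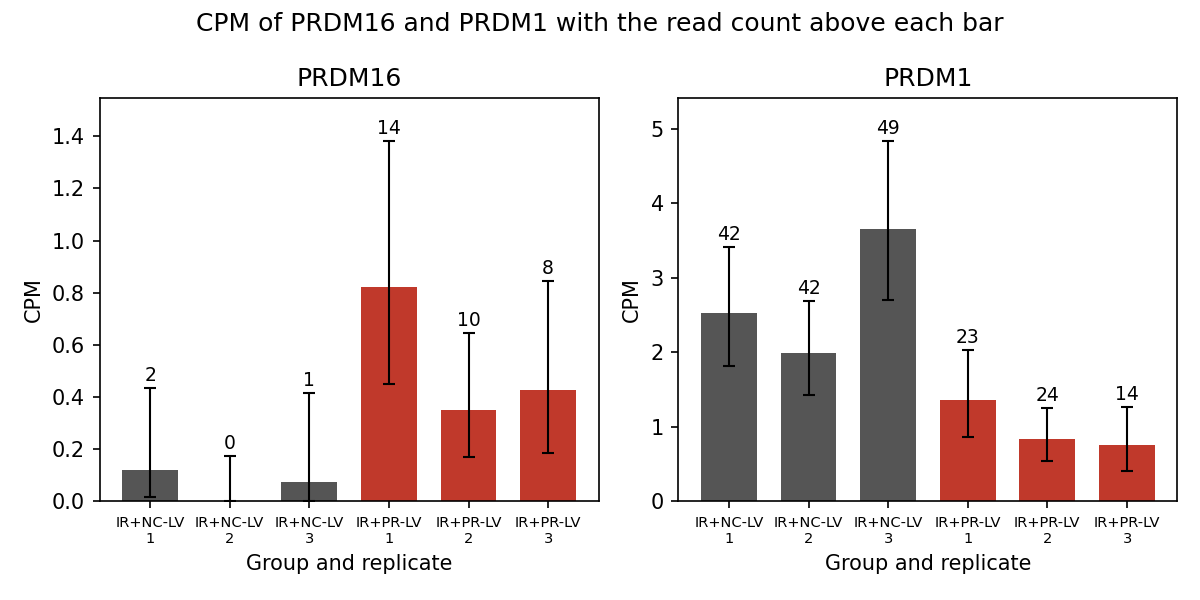
CPM of PRDM16 (left) and PRDM1 (right) in each library, without TMM scaling, with the read count above each bar and the exact 95% Poisson interval as error bar, which covers counting error only. PRDM16 has at most 2 reads in IR+NC-LV and at least 8 in IR+PR-LV; PRDM1 has at least 42 reads in IR+NC-LV and at most 24 in IR+PR-LV.

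The ratio of PRDM1 to PRDM16 was smaller in IR+PR-LV, which follows from the changes of these genes given above and is not a separate result. PRDM1 was 21.7 and 50.6 times the TPM of PRDM16 in IR+NC-LV replicates 1 and 3. PRDM16 had only 2 reads and 1 read there, so these ratios are very uncertain, and it was listed at 0 in replicate 2. In IR+PR-LV the ratio was 1.70, 2.48 and 1.81. PRDM16 thus remained below PRDM1 in each library of the group that carried its virus. The reads were few, and the exact Poisson intervals of the 2 genes overlapped in each of these libraries.

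The 5 genes whose log2 CPM followed PRDM1 most closely over the 6 libraries were ZC3H12D (Pearson r 0.997), SLC25A25 (0.995), TSC22D3 (0.994), PPP1R15A (0.994) and LOC105378951 (0.993). ZC3H12D belongs to a family of RNA-degrading proteins, SLC25A25 is a mitochondrial carrier, TSC22D3 a glucocorticoid-induced regulator and PPP1R15A a stress-induced phosphatase subunit. The r of PRDM1 within the groups, after each group's mean was taken off, was between 0.963 and 0.988 for these 5. The 5 had been picked by their r over the same 6 libraries, so this is not a separate check. The values come from 6 libraries that share the 2 conditions, and 169 of 15339 genes had an r of at least 0.95, so that the 5 names are a description. None of the 5 passed the test, with log2 fold changes from -0.55 to -0.32 against -1.42 for PRDM1.

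Of the 9 genes, 8 passed the filter on low counts, 3 with a higher and 5 with a lower mean in IR+PR-LV. Over all 15340 tested genes, 7839 had a higher and 7501 a lower fitted level in IR+PR-LV. No PRDM gene passed an adjusted p of 0.05 in the main edgeR test, where 0.0652% of all tested genes did. At an unadjusted p of 0.05, 2 of the 8 passed, PRDM1 and PRDM4, both lower, beside 10.5% of all tested genes in either direction and 5.97% in the lower direction. DESeq2 called 1 of them, PRDM1. The median log2 fold change of the 8 was -0.10, against 0.00444 over all tested genes. The groups did not overlap for 3 of the 8, PRDM1, PRDM4 and PRDM8, all lower, beside 17% of all tested genes in either direction and 9.53% in the lower direction.

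PRDM4, the highest of the family, was 84.0, 82.5 and 99.0 TMM-normalised CPM in replicates 1, 2 and 3 of IR+NC-LV, against 76.8, 74.9 and 77.6 CPM in those of IR+PR-LV. The IR+PR-LV libraries lay close together and just below the lowest IR+NC-LV library, and IR+NC-LV replicate 3 stood above the others. The log2 fold change of PRDM4 was -0.21 (SE 0.08, 95% interval -0.39 to -0.03) with an adjusted p of 0.409 in edgeR's quasi-likelihood test. Without IR+NC-LV replicate 3 it was -0.12. IR+NC-LV replicate 3 was also the highest library for PRDM1 and PRDM8 and the one with the smallest total count. Its part in the result of PRDM1 and PRDM8 was not tested beyond leaving it out, which gave -1.19 for PRDM1 and -0.15 for PRDM8. Among lower genes named below, the same library was the highest for MECOM, ZNF408, PPARGC1A, CEBPB, IRF1, XBP1, NFKB1, SETDB1 and SETDB2. It was not the highest for JUN or ID3. What leaving it out gave for these genes was not examined.

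PRDM8 was 1.96, 1.94 and 2.44 CPM in IR+NC-LV against 1.84, 1.71 and 1.74 CPM in IR+PR-LV. The gap between the groups was narrow, since the lowest IR+NC-LV library and the highest IR+PR-LV library differed by less than the spread within IR+NC-LV. The log2 fold change of PRDM8 was -0.26 (95% interval -0.68 to 0.17) with an adjusted p of 0.682 in edgeR. Exact 2-sided permutation tests gave p = 0.1 for PRDM1, PRDM4 and PRDM8, the smallest possible with 3 against 3.

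PRDM13 had 19, 36 and 16 reads in IR+NC-LV against 36, 50 and 23 in IR+PR-LV. The groups overlapped, and the log2 fold change of 0.35 had the widest 95% interval of the 8 after that of PRDM1, from -0.26 to 0.96 (edgeR adjusted p 0.694). Leaving out replicate 1 or 2 of IR+NC-LV gave 0.24 and 0.59 for PRDM13. Leaving out replicate 1 or 3 of IR+PR-LV gave 0.19 and 0.53. PRDM15 was 26.2 to 27.3 CPM in IR+NC-LV against 26.4 to 31.6 CPM in IR+PR-LV. One IR+PR-LV library lay within the IR+NC-LV range, and the log2 fold change of PRDM15 was 0.12 (95% interval -0.08 to 0.32).

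The 3 remaining members differed little between the groups. PRDM2 had a log2 fold change of -0.05 (95% interval -0.21 to 0.11), and its libraries lay between 46.0 and 52.0 CPM. PRDM10 had 0.06 (95% interval -0.12 to 0.24), with libraries between 19.3 and 20.8 CPM. PRDM11 had -0.16 (95% interval -0.44 to 0.12), with libraries between 8.19 and 10.7 CPM. The groups overlapped for all 3, and the adjusted p of PRDM2, PRDM10, PRDM11 and PRDM15 lay between 0.685 and 0.854 in edgeR. The intervals of PRDM2 and PRDM10 were the narrowest among the 8, and they reached no further than 0.24 on the log2 scale in either direction.

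**Figure D3:**
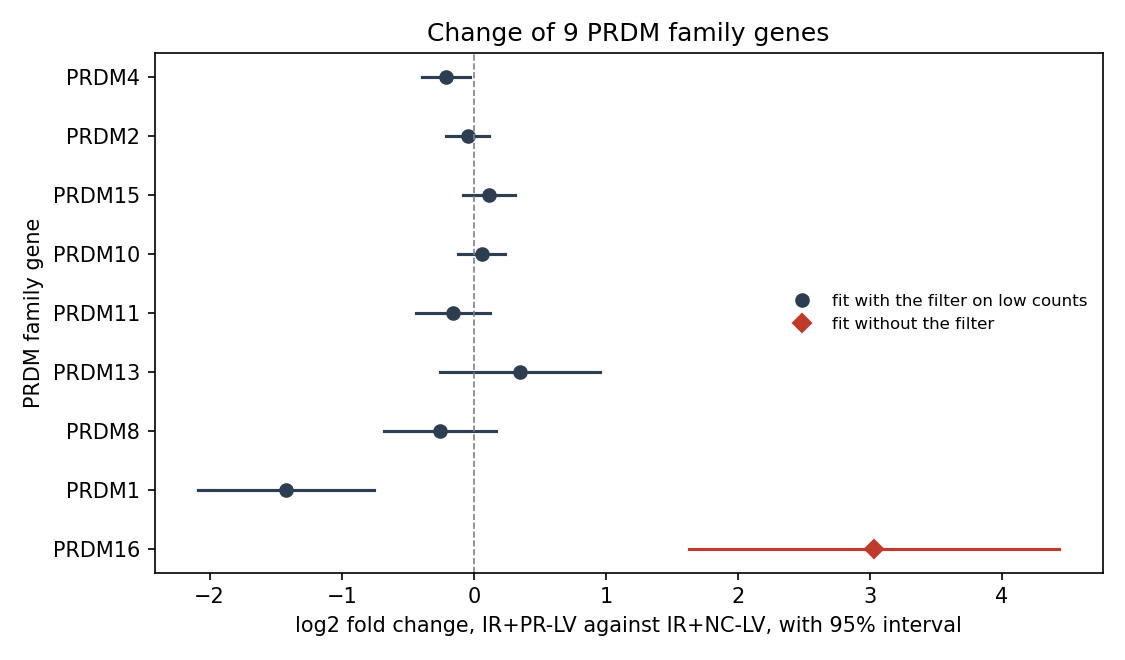
Log2 fold change of IR+PR-LV against IR+NC-LV for the 9 PRDM genes, with 95% intervals from edgeR (n = 3 per group). The circles come from the fit with the filter on low counts and the diamond, PRDM16 at 3.03, from the fit without it. PRDM1 lies at -1.42 and the intervals of 6 genes cross 0.

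The longest annotated transcripts of the 9 genes were nearly free of sequence shared with other genes. Each was searched against the transcripts of all other genes in GENCODE release 29, with matches of at least 100 bases at 97% identity or more. Of the 9, 8 had no match, and PRDM4 matched 172 of its 4210 bases to 1 other gene. Exon bases outside these transcripts were not searched. For PRDM1, for example, the transcript had 5164 bases and the counted exons 8418. In the files' coordinates the exons of PRDM4, PRDM8 and PRDM10 overlap a gene on the opposite strand (LOC101929162, PRDM8-AS1 and LINC00167) over 169, 105 and 376 bases. The library kit named in the labels does not mark strand, and reads in these stretches cannot be told apart between the partners. No exon of PRDM1 or PRDM16 overlaps another gene.

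Of 7 other PRDM family genes, 2 were tested, MECOM (a leukaemia-associated relative of PRDM16) and ZNF408, both with a lower mean in IR+PR-LV. Neither passed in edgeR or DESeq2, and 0 had an unadjusted p under 0.05 in edgeR. The log2 fold change was -0.17 for MECOM and -0.23 for ZNF408, with a median of -0.20. PRDM6, PRDM7, PRDM9, PRDM12 and PRDM14 failed the filter. PRDM7 and PRDM9 are close copies of each other, so that their few reads are uncertain.

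Of 19 partner proteins and cofactors of PRDM proteins, 18 were tested, 13 with a higher and 5 with a lower mean in IR+PR-LV, and 0 passed an adjusted p of 0.05 by edgeR, with 2 higher and 2 lower at an unadjusted p of 0.05, where 10.5% of all tested genes passed. The median log2 fold change was 0.05. PPARGC1A, the coactivator of mitochondrial genes that PRDM16 works with in brown fat, was 19.5, 16.0 and 22.1 CPM in IR+NC-LV against 11.9, 11.4 and 10.5 CPM in IR+PR-LV. Its groups did not overlap, with a log2 fold change of -0.77 (SE 0.13, edgeR adjusted p 0.0799). PPARGC1A was the 1 gene of this list past the threshold in DESeq2 (adjusted p 0.00037), where 1.13% of all genes passed, and in edgeR without the filter (adjusted p 0.000131), where 1.19% did. The others named by rule were HDAC2 at 0.23 (adjusted p 0.274), CEBPB at -0.19 and EHMT2, an H3K9 methyltransferase, at 0.81 (adjusted p 0.482). EHMT2 is listed in 7 rows for copies on alternate scaffolds, and with the copies summed its log2 fold change was 0.21 (adjusted p 0.890), so the single row is uncertain. EBF2, the brown fat factor, had no read.

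Of 16 genes up or downstream of PRDM1, 12 were tested, 3 with a higher and 9 with a lower mean, beside 7501 of all 15340 tested genes that were lower. By edgeR 0 passed, with 0 higher and 4 lower at an unadjusted p of 0.05, where 5.97% of all tested genes were lower. The list was chosen with earlier results of these data known, so these counts are a description. The median log2 fold change was -0.19. IRF1, an interferon-responsive transcription factor, was 57.8, 57.7 and 71.5 CPM in IR+NC-LV against 44.3, 39.8 and 40.9 CPM in IR+PR-LV. These groups did not overlap either, and the log2 fold change of IRF1 was -0.58 (SE 0.10, edgeR adjusted p 0.0799). IRF1 was the 1 gene of this list past the threshold in DESeq2 (adjusted p 6.31e-05) and in edgeR without the filter (adjusted p 3.77e-05), beside 1.13% and 1.19% of all genes. The 4 lower genes were IRF1, XBP1 (-0.24), JUN (-0.23) and NFKB1 (-0.28), and the other genes named by rule were ID3 (-0.29), CIITA (0.12), a target that PRDM1 represses in plasma cells, and RELA (0.02). The value of ID3 rested on 1 library, with 8.99, 53.2 and 12.3 CPM in IR+NC-LV against 26.2, 16.7 and 19.5 CPM in IR+PR-LV, and the controls other than replicate 2 lay below every IR+PR-LV library. XBP1, JUN and NFKB1 were named after their values were seen.

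All 12 of the other H3K9 and H3K4 methyltransferases were tested, 7 with a higher and 5 with a lower mean, and 0 passed by edgeR or DESeq2, also 0 at an unadjusted p of 0.05 in edgeR. Their median log2 fold change was 0.03. The extremes were SETDB2 (-0.32), SETDB1 (-0.14), SUV39H2 (0.12) and SETD7 (0.09).

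**Figure D4:**
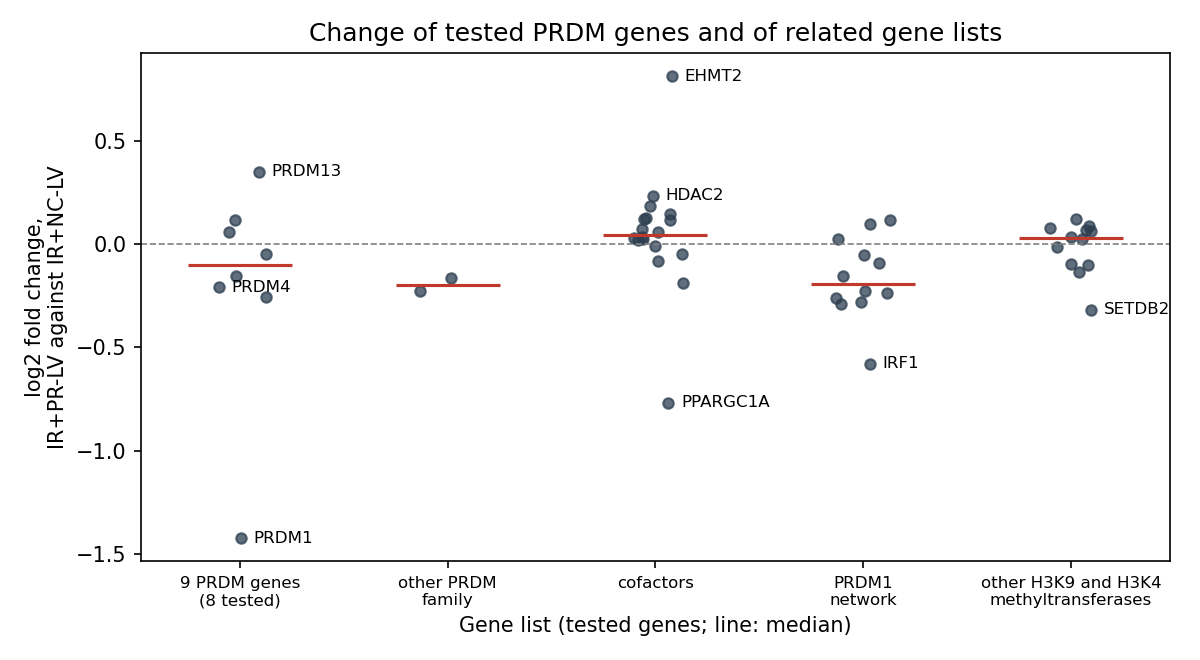
Log2 fold change of IR+PR-LV against IR+NC-LV for the tested genes of each list, with a red line at the median and selected genes named. PRDM1 at -1.42 lies below all other plotted genes, and EHMT2 at 0.81 is 1 of 7 rows of that gene.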

How the data were processed

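The 6 libraries were measured by poly(A) RNA-seq with paired-end reads. The submitters' processing notes name CASAVA, featureCounts 2.0.1, DESeq2 1.16.1 and hg38. The aligner and the strand setting were not given in the sources used here. After filtering reads by quality and adapter content, the authors deposited, per library, the read count of each gene without normalization, beside TPM and FPKM. The deposited TPM follow from the counts and the exon lengths and were used for levels between genes, and the deposited FPKM only for the order of levels.

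Counts were tested with edgeR 4.0.16 in R 4.3.3 (filterByExpr with a minimum count of 10 and total of 15, TMM, glmQLFit and glmQLFTest) over all genes, with Benjamini-Hochberg adjustment and a threshold of 0.05. PRDM16 came from the same fit without the filter, on genes with at least 1 count. CPM are TMM-normalised unless stated, and SEs follow from the fold change and the F statistic. Correlations used log2 CPM with a prior count of 2. DESeq2 1.42.0, RLE and upper-quartile scaling, other filters, a replicate block, each library left out and summed gene copies were the alternatives. Shared sequence was searched with blastn 2.17.0. Since the libraries have no molecular identifiers, reads are not independent molecules. The exact intervals and limits of read counts describe counting error alone, while the edgeR intervals of fold changes also include the spread between libraries.

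Groups came from the sample titles. The 9 genes and the lists were chosen with earlier results of these data known. All 9 were named; of each list, genes past the threshold and, at a mean of at least 1 CPM, the 2 most positive and the 2 most negative fold changes, and the 5 genes most correlated with PRDM1. From the list of other PRDM genes, 1 gene is not reported here. A gene with several listed copies entered by the copy with the most reads. Fibroblast, endothelial, leukocyte and plasma or B cell markers had summed levels of 10.0 to 15.3, 0.185 to 0.333, 3.20 to 5.10 and 99.2 to 122 TPM over the 6 libraries, the last mostly from SDC1.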

Additional observations from a re-analysis of the deposited data

How the results depend on the processing

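The order of the 9 levels was the same in FPKM, in TMM-scaled counts per exon base and without each library. The direction of all 8 tested PRDM genes was the same in their 13 alternatives. PRDM1 alone passed the threshold in any, in DESeq2 and without the filter on low counts. The number of PRDM genes past the threshold was 0 in the main fit, 1 in DESeq2 and 2 without the filter (PRDM1 and PRDM16), and 0 with every library left out in turn. Over all genes 10 were called in the main fit, 168 in DESeq2, 342 without the filter, 1 at an adjusted p of 0.01 and 58 at 0.1, and 1 to 28 with a library left out, with 1 without IR+NC-LV replicate 1 and also 1 without IR+PR-LV replicate 3, 28 without IR+NC-LV replicate 2 and 16 without IR+NC-LV replicate 3. The cause of these shifts was not tested.

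The PRDM16 log2 fold change was 2.35 to 3.91 with a library left out and passed the threshold in 8 of 10 refits without the filter. The share of all genes that passed in these refits was not counted. PRDM16 gave no value with filterByExpr or with at least 10 counts in every library, and no adjusted p in DESeq2. Whether the replicate numbers pair the libraries could not be decided, since all correlations of their deviations were small with 3 libraries per group. Same-numbered libraries correlated at -0.00884, 0.0514 and 0.0706 for numbers 1, 2 and 3. In the IR+NC-LV group, replicates 2 and 3 had their best match in the IR+PR-LV library of their own number. Replicate 1 of that group was closest to number 2 of the other group, at 0.0619. With the replicate block and no filter on low counts, PRDM16 was at 3.09 (adjusted p 0.0567) and PRDM1 at -1.39 (adjusted p 0.0132). With the block and the filter, PRDM1 was at -1.40 (adjusted p 0.194), and 3 genes were called. The depth limits PRDM16 and PRDM1, which had at most 14 and 49 reads in a library.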
